A study of Homo sapiens with 10 samples.

Results

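The genes of urokinase (PLAU), the urokinase receptor (PLAUR), tissue plasminogen activator (PLAT), protease nexin-1 (SERPINE2), tissue factor (F3) and thrombospondin-1 (THBS1) were examined in the MDAMB231 breast cancer cell line. The 6 genes were taken from a list of names, and their bounds in the GENCODE annotation of GRCh37 (hg19) were widened by 50 kb on each side. They are 6 of the 20098 protein-coding genes on chromosomes 1 to 22 and X. A total of 120 of the 128837 peaks in the 4 peak lists shared at least 1 base with the widened bounds, namely 16 H3K4me3, 34 H3K27Ac, 22 H3K4me1 and 48 FAIRE peaks.

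Urokinase and tissue plasminogen activator are serine proteases that cut plasminogen to plasmin, a broad protease that dissolves fibrin and helps cells move through matrix. Urokinase does so while bound to its receptor on the cell surface, and protease nexin-1 is a secreted inhibitor of both activators and of thrombin. Tissue factor is the membrane receptor that starts coagulation, thrombospondin-1 is a matrix glycoprotein that binds cells, proteases and latent TGF-beta, and invasive breast cancer cells are a well studied source of several of these proteins.

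MDAMB231 is a triple-negative line with mesenchymal features, and it was grown in DMEM with 5% FBS without any treatment. ChIP-seq, in which an antibody recovers the DNA of nucleosomes with a given histone mark, was done with 2 samples each for H3K4me3, H3K27Ac and H3K4me1 and 1 input. FAIRE-seq, which recovers the nucleosome-depleted DNA that escapes crosslinking, here with 1% formaldehyde, had 2 samples and 1 input of its own. The samples of each assay were combined into 1 list, so that no peak has a replicate error, no test between groups was possible, and every value is a description of combined libraries.

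H3K4me3 marks promoters, H3K27Ac marks active promoters and enhancers, and H3K4me1 marks enhancers, which the study called active with H3K27Ac and poised without it. The study made this split by clustering H3K27Ac tags at its selected loci, whereas only the overlap of called peaks was read here. The strength of a histone peak is the deposited MACS score, 10 times the negative log10 of its p-value. A score of 3100 or more was given to 56.8% of H3K4me3 peaks and to 10.5% of H3K27Ac peaks, with the highest at 3233, and therefore 3100 is read here as the value at which strong peaks pile up and not as a rank. The strength of a FAIRE peak is the deposited height, with a median of 61.1 over the list, and neither its scale nor the read depth is given in the lists used here.

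A promoter was taken as any annotated start site of a gene with 1 kb on each side, and the main start site as that of the transcript marked canonical. All 6 genes had an H3K4me3 peak at the promoter, compared with 67.3% of protein-coding genes, and all 6 had an H3K27Ac peak, compared with 63.5%. An H3K4me1 peak was found at the promoters of PLAU, PLAT, F3 and THBS1 (4 of 6, compared with 20.0% of protein-coding genes). A FAIRE peak was found at all but the SERPINE2 promoter (5 of 6, compared with 39.3%).

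The 4 genes with H3K4me1 had peaks of all 4 lists at the promoter, as did 13.1% of protein-coding genes. The peaks were counted over all start sites of a gene, and at PLAT and THBS1 the H3K4me1 peak met no H3K4me3 peak. None of the 6 (0 of 6) lacked promoter peaks of every list, compared with 29.3%. PLAUR and SERPINE2 had H3K4me3 and H3K27Ac without H3K4me1 (2 of 6, compared with 43.6%). The number of annotated start sites was 16 for PLAUR, 12 for PLAT, 9 for SERPINE2, 7 for THBS1, 5 for PLAU and 3 for F3, against a median of 5 over protein-coding genes, and some promoter peaks of PLAT and THBS1 were far inside the gene. Their promoters spanned 12937 bp for PLAT, 11196 bp for SERPINE2, 10444 bp for THBS1, 9088 bp for PLAUR, 4124 bp for F3 and 3971 bp for PLAU, against a median of 4591 bp.

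The base of the main start site itself lay inside an H3K4me3 peak and an H3K27Ac peak in all 6 genes, compared with 64.1% and 59.2% of the 19819 protein-coding genes with a canonical transcript. It lay inside an H3K4me1 peak in PLAU alone (1 of 6, compared with 5.0%), and inside a FAIRE peak in PLAUR and PLAT (2 of 6, compared with 26.3%). Within 1 kb of the main start site, an H3K4me1 peak was found for PLAU and F3 (2 of 6, compared with 12.5%) and a FAIRE peak for PLAUR, PLAT, F3 and THBS1 (4 of 6, compared with 31.8%). The H3K4me1 and FAIRE counts thus depended on which start site was used, whereas the H3K4me3 and H3K27Ac counts did not.

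**Figure D1:**
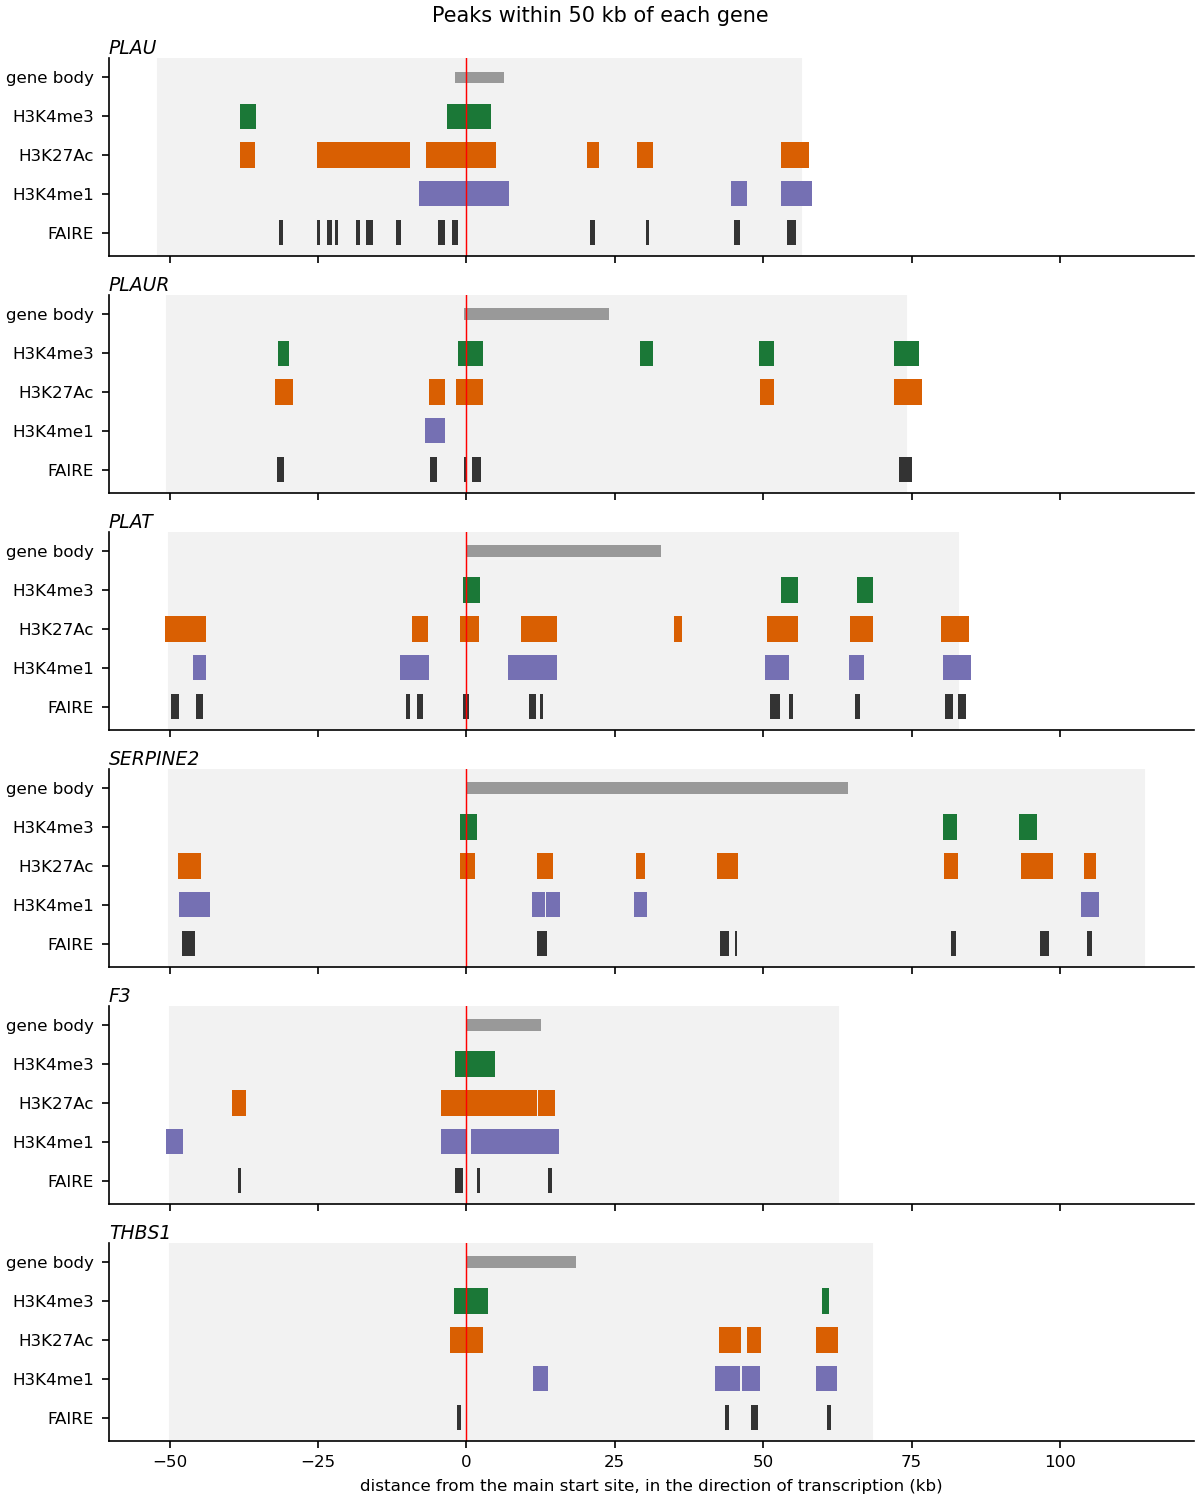
Peaks of the 4 lists around the 6 genes, drawn to scale against the distance from the main start site (kb, red line) in the direction of transcription; the shaded span is the gene with 50 kb on each side. H3K4me3 and H3K27Ac covered every main start site, and PLAU had 14 FAIRE peaks, against 4 each for F3 and THBS1.

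PLAU (ENSG00000122861) encodes urokinase and lies on chromosome 10 from 75668935 to 75677254 on the plus strand, with the main start site at 75670890. Its H3K4me3 peak extended from 75667552 to 75675076 (7525 bp) and was wider than 99.4% of the H3K4me3 list, with a score of 3100. The H3K27Ac peak over it extended from 75664167 to 75675824 (11658 bp, score 3100), wider than 99.2% of its list. H3K4me1 covered the same ground from 75662840 to 75678006 (15167 bp), wider than 99.7% of its list, but with a score of 112 that only 49.0% of H3K4me1 peaks fell below. The promoter of urokinase was therefore inside wide domains of all 3 marks, of which H3K4me1 was wide and of middling score.

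The FAIRE peak at the PLAU promoter was the highest of the 48 around the 6 genes. It lay from 75668455 to 75669450, 2435 to 1440 bp upstream of the main start site, with a height of 156 that exceeded 98.6% of the FAIRE list. It covered the most upstream annotated start site, at 75668935, and no FAIRE peak lay within 1 kb of the main start site. The FAIRE peak at the PLAU promoter thus lay upstream of the main start site and not over it, and FAIRE signal below the peak calls was not examined.

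Further upstream, a second H3K27Ac domain extended from 75645692 to 75661471 (15780 bp, score 1540), 25.2 to 9.42 kb from the main start site and separated from the promoter domain by 2695 bp. It held 6 FAIRE peaks, and 99.8% of H3K27Ac peaks met fewer. The highest of these FAIRE peaks had heights of 151 (from 75653965 to 75655175) and 142 (from 75659089 to 75659855), above 98.1% and 97.0% of the list. No H3K4me1 peak met this domain, which lay between protein-coding genes.

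Downstream of PLAU, an H3K27Ac peak with a score of 3100 lay from 75723897 to 75728566, 53.0 to 57.7 kb from the main start site, and met an H3K4me1 peak with a score of 127.5 and a FAIRE peak with a height of 136. An H3K4me1 peak from 75715440 to 75718153 had a score of 109 and met a FAIRE peak of height 53.0. It was the only distal H3K4me1 peak near the 6 genes that met no H3K27Ac peak. On the upstream side, the second H3K4me3 peak of the region was at the start of CAMK2G, a calmodulin-dependent kinase gene, 38.2 to 35.4 kb from the main start site, with a score of 3100 and an H3K27Ac score of 506.

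Stretches of the 2 highest FAIRE peaks of PLAU are shown because they hold matches to the AP-1 motif TGANTCA, which reads the same on both strands and is in capitals here. The sequences are from GRCh37, on the plus strand. In the upstream domain, a pair of matches starts 16407 and 16386 bp before the main start site, 21 bp apart, in chr10:75654433-75654560. The same FAIRE peak holds a further match 15916 bp before the start site, and other FAIRE peaks of the domain hold matches 23204, 21877 and 11599 bp before it, which are not shown. The peak at the promoter holds matches that start 1890 and 1698 bp before the main start site. The first of these lies in the first exon of the most upstream transcript and is shown as a short site, chr10:75668990-75669016, and the other is in chr10:75669142-75669248.
PLAU, 16407 bp upstream: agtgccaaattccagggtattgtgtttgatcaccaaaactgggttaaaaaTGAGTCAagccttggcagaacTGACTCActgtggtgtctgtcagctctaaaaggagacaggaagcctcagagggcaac
PLAU, 1890 bp upstream: gggagcaacaTGAATCAtgacggtccc
PLAU, 1698 bp upstream: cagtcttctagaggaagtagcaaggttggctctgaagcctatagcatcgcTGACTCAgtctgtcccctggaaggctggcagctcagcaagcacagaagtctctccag

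PLAUR (ENSG00000011422), the gene of the lipid-anchored urokinase receptor, lies on chromosome 19 from 44150247 to 44174699 on the minus strand, with the main start site at 44174321. The H3K4me3 peak at its promoter extended from 44171584 to 44175792 (4209 bp, score 3100) and the H3K27Ac peak from 44171559 to 44176021 (4463 bp, score 3012). These bounds nearly coincided, and both peaks reached further into the gene than upstream of it. A FAIRE peak from 44174202 to 44174748 (height 70.4) covered the main start site, and a higher one from 44171902 to 44173400 (height 123, above 93.6% of the list) lay 921 to 2419 bp inside the gene, over start sites of other PLAUR transcripts.

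The only H3K4me1 peak within 50 kb of PLAUR lay from 44177858 to 44181252, 6.93 to 3.54 kb upstream, with a score of 103. It met an H3K27Ac peak with a score of 648 and a FAIRE peak with a height of 44.4, which only 20.5% of FAIRE peaks fell below. A stronger H3K27Ac peak, with a score of 1999, lay from 44203537 to 44206601, about 30 kb upstream and between protein-coding genes, where H3K4me3 (score 515) and FAIRE (height 87.0) also had a peak and H3K4me1 had none. The urokinase receptor gene thus had 1 H3K4me1 peak where the urokinase gene had 3.

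The other side of the PLAUR region was occupied by promoters of other genes. H3K4me3 peaks covered start sites of IRGQ, ZNF576 and SRRM5 (score 3100), ZNF428 (score 3100) and CADM4 (score 2556). The first of these met H3K27Ac with a score of 2658 and FAIRE with a height of 118, the second met H3K27Ac with a score of 1268, and the CADM4 peak met no other list. Of the 5 H3K4me3 peaks counted for PLAUR, 3 therefore belonged to neighbours.

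AP-1 matches of the 2 FAIRE peaks at the PLAUR promoter are shown on the strand of the gene (minus, GRCh37), with the motif TGANTCA in capitals. The match near the start begins 186 bp before the main start site, in chr19:44174491-44174517, and lies in the first exon of a transcript that starts at 44174699, so that only the site is given. The other lies in chr19:44173230-44173336 and begins 1035 bp after the main start site.
PLAUR, 186 bp upstream: cacaactccaTGAGTCAgggccgagcc
PLAUR, 1035 bp downstream: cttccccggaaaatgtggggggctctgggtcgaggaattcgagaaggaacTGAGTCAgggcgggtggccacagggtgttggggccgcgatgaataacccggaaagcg

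PLAT (ENSG00000104368), the gene of tissue plasminogen activator, lies on chromosome 8 from 42032236 to 42065227 on the minus strand, with the main start site at 42065083. Its H3K4me3 peak from 42062840 to 42065660 (2821 bp) had a score of 1812, the only one of the 6 promoter H3K4me3 scores below 3100. The H3K27Ac peak over the start site (from 42062898 to 42066205, 3308 bp) had a score of 412.5, the lowest of the 6 promoters and below the median of 591 for the H3K27Ac list. A FAIRE peak from 42064636 to 42065671 covered the start site with a height of 81.5. The PLAT start site was therefore nucleosome-depleted with comparatively weak acetylation.

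Inside the gene the order was different. An H3K27Ac peak from 42049832 to 42055817 (5986 bp, score 3100) lay 9.27 to 15.3 kb into PLAT and was not met by H3K4me3. The H3K4me1 peak there, from 42049797 to 42058154 (8358 bp), had a score of 674, above 97.8% of the H3K4me1 list and the highest of the 22 H3K4me1 peaks around the 6 genes. FAIRE peaks with heights of 93.4 and 36.0 lay inside it. The centres of these peaks were in introns, and they count as promoter peaks only because shorter PLAT transcripts are annotated to start there.

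Upstream of PLAT, an H3K27Ac peak with a score of 612 lay 9.13 to 6.41 kb from the main start site, with H3K4me1 (score 62.8) and a FAIRE peak of height 68.2 from 42072323 to 42073407. A stronger H3K27Ac peak, with a score of 3100 and a width of 6919 bp, lay 50.8 to 43.9 kb upstream with an H3K4me1 score of 122. Downstream, beyond the end of the gene, an H3K27Ac peak with a score of 2827 met an H3K4me1 peak with a score of 206 and a FAIRE peak with a height of 74.8 some 80.7 to 82.0 kb from the main start site. The start of AP3M2, an adaptor complex gene, lay between these peaks and PLAT, with an H3K4me3 score of 3100, an H3K27Ac score of 3111, an H3K4me1 score of 187 and a FAIRE height of 97.2. An H3K4me3 peak with a score of 3100 was also found over start sites of non-coding transcripts 65.7 to 68.5 kb downstream.

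SERPINE2 (ENSG00000135919) encodes protease nexin-1, the inhibitor in the group, and lies on chromosome 2 from 224839762 to 224904035 on the minus strand, with the main start site at 224904003. Its H3K4me3 peak from 224902246 to 224905027 (2782 bp) had a score of 3100, and its H3K27Ac peak from 224902474 to 224905042 (2569 bp) had a score of 1256. No H3K4me1 or FAIRE peak touched any of its 9 start sites with 1 kb on each side. SERPINE2 was the only one of the 6 genes without a FAIRE peak at the promoter.

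FAIRE peaks were nevertheless present in its introns and upstream. The highest intronic one, from 224890410 to 224892044 (height 84.8), lay 11959 to 13593 bp into the gene in an H3K27Ac peak with a score of 1014 and met a pair of H3K4me1 peaks with scores of 60.3 and 58.0, above only 13.0% and 10.3% of H3K4me1 peaks. The strongest distal element lay upstream, where an H3K27Ac peak with a score of 3100 from 224948656 to 224952633 met an H3K4me1 peak with a score of 272 and FAIRE peaks with heights of 103 and 45.1, 47.9 to 45.8 kb from the main start site. The FAIRE and H3K4me1 peaks of this region were thus away from the SERPINE2 promoter.

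The neighbouring genes WDFY1 and MRPL44 had H3K4me3 peaks with scores of 3100, and the WDFY1 start also had an H3K27Ac score of 3100. An intron of WDFY1 held an H3K4me1 peak with a score of 216 and a FAIRE peak with a height of 66.7, 105 kb from the SERPINE2 start site.

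The bases before the SERPINE2 start sites are shown because the promoter carried both promoter marks without a FAIRE peak. The stretch is chr2:224904036-224904253 on the minus strand (GRCh37), from 250 to 33 bp before the main start site, with the GC box GGGCGG in capitals. It holds 4 matches on the strand of the gene, of which a pair adjoin. The upstream FAIRE peak of height 103 is shown around its AP-1 match TGANTCA, also on the minus strand, in chr2:224951399-224951505.
SERPINE2, before the start: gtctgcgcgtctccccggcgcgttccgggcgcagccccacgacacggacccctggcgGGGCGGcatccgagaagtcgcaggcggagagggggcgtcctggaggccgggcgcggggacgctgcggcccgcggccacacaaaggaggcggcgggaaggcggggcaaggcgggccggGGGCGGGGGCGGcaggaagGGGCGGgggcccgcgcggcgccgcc
SERPINE2, 47452 bp upstream: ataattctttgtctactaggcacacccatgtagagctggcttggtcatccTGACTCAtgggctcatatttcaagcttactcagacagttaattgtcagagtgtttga

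F3 (ENSG00000117525), the tissue factor gene, lies on chromosome 1 from 94994729 to 95007315 on the minus strand, with the main start site at 95007315. A single H3K27Ac peak from 94995453 to 95011641 (16189 bp, score 3100) covered nearly the whole gene and was the widest of the 34 H3K27Ac peaks around the 6 genes, wider than 99.7% of the list. Its H3K4me3 peak from 95002544 to 95009201 (6658 bp, score 3100) was wider than 99.0% of the list and was the only H3K4me3 peak within 50 kb. H3K4me1 peaks lay on each side of the start site, from 94991654 to 95006545 (14892 bp, score 111) and from 95007451 to 95011606 (4156 bp, score 342). The gap of 905 bp between them held the main start site, so H3K4me1 reached the tissue factor promoter from both sides and did not cover the start site.

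FAIRE peaks at F3 had moderate heights. The one at the promoter lay from 95007861 to 95009236 (height 66.7), 1921 to 546 bp upstream, and another lay from 95004989 to 95005577 (height 74.7) in an intron, 1738 to 2326 bp into the gene. Both were inside the wide H3K27Ac domain. Away from it, a FAIRE peak with a height of 74.7 met an H3K27Ac peak with a score of 481, 39.5 to 37.2 kb upstream. Beyond the end of the gene, a FAIRE peak with a height of 56.4 met an H3K27Ac peak with a score of 250. Only 119 bp separated this H3K27Ac peak from the wide domain, and the H3K4me1 peak with a score of 111 met both. The nearest other H3K4me1 peak, with a score of 108, was over the start of a non-coding transcript 47.8 to 50.5 kb upstream and met no other list.

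The 250 bases before the F3 start site are shown because they hold a pair of AP-1 matches, TGAATCA and TGAGTCA, which begin 223 and 210 bp before the start site and are in capitals. The stretch is chr1:95007316-95007565, minus strand, GRCh37, and lay under the H3K4me3 and H3K27Ac peaks and outside the FAIRE peaks, and its part with both matches also lay under the upstream H3K4me1 peak. It also holds GGGCGG at 4 places, of which 1 is on the opposite strand, and TATAAA on the opposite strand 28 bp before the start. The intronic FAIRE peak is shown in chr1:95005243-95005424, on the same strand, with matches 75 bp apart.
F3, before the start: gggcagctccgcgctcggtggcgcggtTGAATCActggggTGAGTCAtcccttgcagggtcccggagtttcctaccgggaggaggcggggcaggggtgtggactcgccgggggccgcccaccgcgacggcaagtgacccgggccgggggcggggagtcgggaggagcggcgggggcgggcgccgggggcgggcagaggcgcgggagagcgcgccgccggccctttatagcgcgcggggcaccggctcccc
F3, intron: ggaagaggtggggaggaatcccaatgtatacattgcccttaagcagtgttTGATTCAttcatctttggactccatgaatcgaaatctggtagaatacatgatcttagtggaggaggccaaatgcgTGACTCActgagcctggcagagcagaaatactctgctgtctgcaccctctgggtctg

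THBS1 (ENSG00000137801), which encodes thrombospondin-1, lies on chromosome 15 from 39873280 to 39891667 on the plus strand, with the main start site at 39873280. The H3K4me3 peak from 39871226 to 39876839 (5614 bp, score 3100) was wider than 97.6% of its list, and the H3K27Ac peak from 39870501 to 39876161 (5661 bp, score 3078) was wider than 92.0%. The FAIRE peak counted at the promoter, from 39871764 to 39872287, had a height of 48.0 and ended 993 bp before the main start site. It reached the 1 kb limit by a few bases. The H3K4me1 peak counted there, from 39884429 to 39887004 (score 64.6), lay 11.1 to 13.7 kb into the gene over start sites of transcripts with a retained intron and met no other list.

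The other peaks of the THBS1 region formed a group downstream, in introns of FSIP1, a gene that overlaps this side of the region. An H3K27Ac peak with a score of 1609 from 39915917 to 39919571 met an H3K4me1 peak with a score of 334 and a FAIRE peak with a height of 104, 43.6 to 44.2 kb from the main start site. A further H3K27Ac peak with a score of 552 met an H3K4me1 score of 121 and a FAIRE height of 54.7, and the most distant, with a score of 2513 and 58.9 to 62.7 kb away, met an H3K4me1 score of 255, a FAIRE height of 44.03 and a narrow H3K4me3 peak with a score of 74.1. No peak of any list was counted more than 2779 bp upstream of the THBS1 start site. Thrombospondin-1 thus had a promoter with wide H3K4me3 and its nearest distal H3K27Ac peak 42.6 kb away.

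The 250 bases before the THBS1 start site are shown with GGGCGG in capitals (chr15:39873030-39873279, plus strand, GRCh37). The motif was found at 4 places, of which a pair are on the opposite strand and read CCGCCC. The same stretch holds CCAAT on the opposite strand 66 bp before the start and GGAATG, the core of TEAD sites, 46 bp before it. The FAIRE peak of height 104 is shown around its AP-1 match TGANTCA in chr15:39917071-39917177.
THBS1, before the start: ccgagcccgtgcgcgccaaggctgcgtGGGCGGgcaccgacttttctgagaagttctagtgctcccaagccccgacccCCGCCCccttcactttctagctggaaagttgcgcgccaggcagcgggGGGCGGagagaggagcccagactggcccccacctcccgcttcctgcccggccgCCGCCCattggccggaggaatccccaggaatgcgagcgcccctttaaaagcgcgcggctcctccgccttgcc
THBS1, 43841 bp downstream: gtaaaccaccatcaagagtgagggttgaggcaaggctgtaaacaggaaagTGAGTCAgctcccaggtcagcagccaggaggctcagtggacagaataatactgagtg

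Set side by side, the peaks over the main start sites differed in width. The H3K4me3 widths ran from 7525 bp in PLAU through 6658 bp in F3, 5614 bp in THBS1 and 4209 bp in PLAUR to 2821 bp in PLAT and 2782 bp in SERPINE2, against a list median of 2524 bp. An H3K4me3 peak of 5 kb or more was at the promoters of PLAU, F3 and THBS1 (3 of 6, compared with 4.25% of protein-coding genes), and an H3K27Ac peak of 10 kb or more at those of PLAU and F3 (2 of 6, compared with 1.69%). These width limits were set after the values were seen. The genes of urokinase and tissue factor thus had the widest marks, those of thrombospondin-1 and the urokinase receptor followed for H3K4me3, and those of tissue plasminogen activator and protease nexin-1 had H3K4me3 peaks near the list median.

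**Figure D2:**
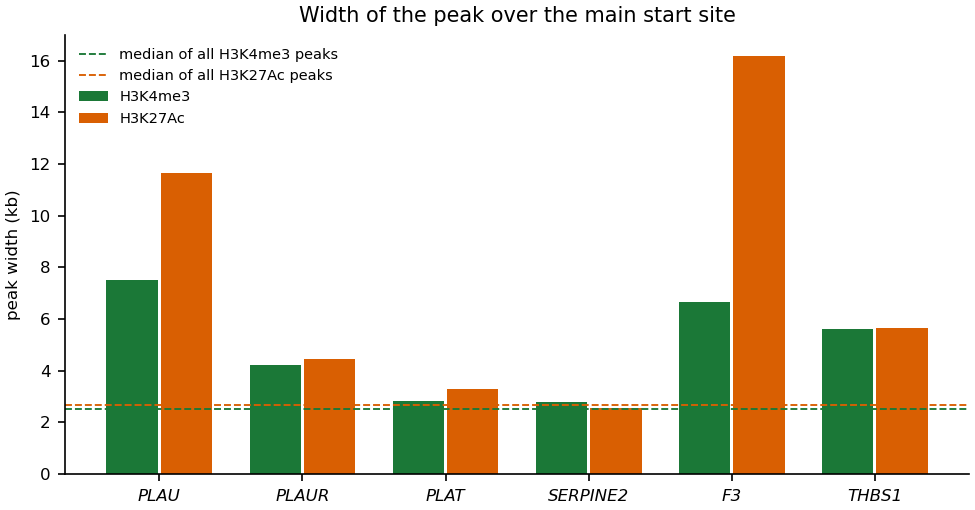
Width (kb) of the H3K4me3 and H3K27Ac peaks that cover the main start site of each gene, with dashed lines at the median width of each whole list. PLAU and F3 stand above 6 kb for H3K4me3 and above 11 kb for H3K27Ac, whereas SERPINE2 lies near both medians.

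The share of each gene with its 50 kb sides that peaks covered was ranked among the 20098 protein-coding genes, as a description. PLAU had 34.9% under H3K27Ac (rank 127 from the highest), 19.6% under H3K4me1 (rank 463) and 10.5% under FAIRE peaks (rank 69), against medians of 6.17%, 2.44% and 1.84%. PLAT had 23.9%, 18.3% and 8.87% (ranks 816, 602 and 195). F3 had 19.1% under H3K27Ac and 18.9% under H3K4me1 (ranks 1762 and 541), and 2.87% under FAIRE peaks, which 68.3% of genes fell below. The regions of the plasminogen activator genes were thus high in these 3 lists, and that of the tissue factor gene in H3K27Ac and H3K4me1. These shares count every peak of a region, also those at start sites of other genes. At PLAT such peaks were 2 of 8 H3K27Ac, 2 of 6 H3K4me1 and 4 of 13 FAIRE peaks. At PLAU they were 1 of 6 H3K27Ac peaks, and at F3 1 of 3 H3K4me1 peaks.

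SERPINE2 had 14.7% under H3K27Ac, 9.13% under H3K4me1 and 5.22% under FAIRE peaks, which exceeded 83.6%, 84.0% and 91.0% of genes. THBS1 had 12.9%, 11.4% and 2.40%, and its FAIRE share exceeded 60.7% of genes. PLAUR had 11.7% under H3K27Ac, 4.51% under FAIRE peaks and 2.73% under H3K4me1, the last close to the median of 2.44%. Peaks at start sites of other genes were 2 of 8 H3K27Ac and 1 of 8 FAIRE peaks at SERPINE2. At PLAUR they were 2 of 5 H3K27Ac and 1 of 5 FAIRE peaks. The H3K4me3 shares ranged from 4.98% in SERPINE2 to 10.5% in PLAUR, against a median of 3.62%, and included promoters of neighbours in 4 of the 6 regions. The order of the genes thus differed between lists, with PLAUR highest for H3K4me3 and lowest for H3K27Ac and H3K4me1.

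**Figure D3:**
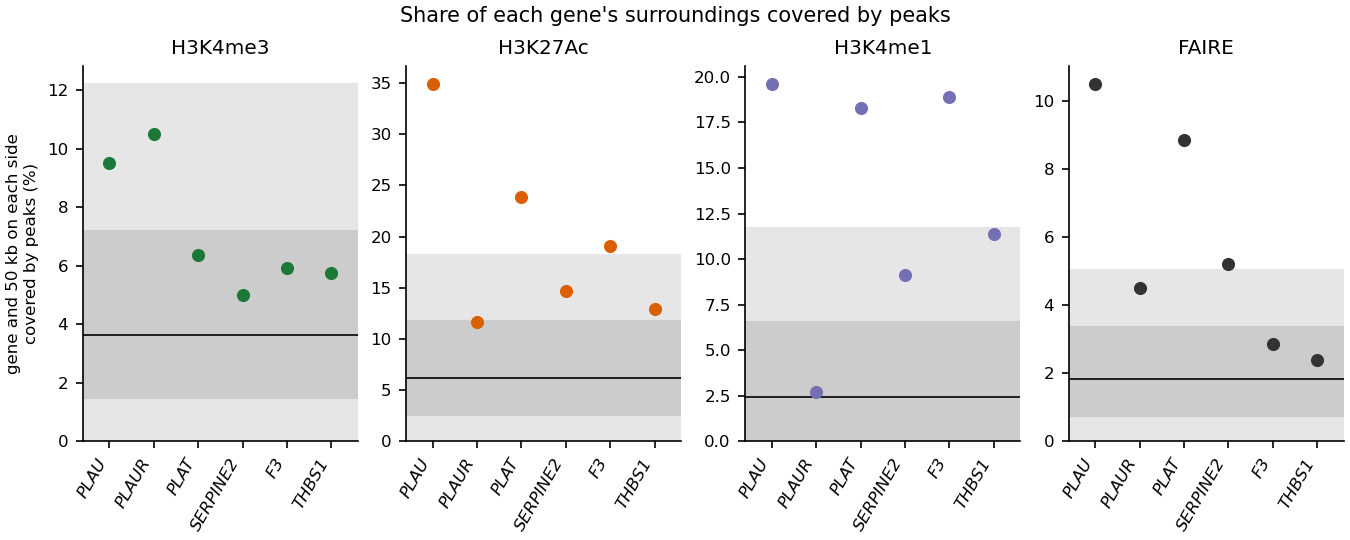
Percent of each gene with 50 kb on each side that is covered by the peaks of each list (points), over the spread of all protein-coding genes (line, median; dark band, 25th to 75th percentile; light band, 10th to 90th percentile). PLAU reaches 34.9% for H3K27Ac and 10.5% for FAIRE, and PLAUR lies near the median for H3K4me1 at 2.73%.

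Distal peaks were those that shared no base with any annotated start site, of any gene, with 1 kb on each side. Of the 20 distal H3K27Ac peaks around the 6 genes, 18 met a FAIRE peak, compared with 74.1% of the 21263 distal H3K27Ac peaks of the whole list. Of the 14 distal H3K4me1 peaks, 13 met an H3K27Ac peak (compared with 70.7% of 19855) and 13 met a FAIRE peak (compared with 72.0%). By gene there were 5 distal H3K27Ac peaks at SERPINE2, 4 each at PLAU and PLAT, 3 at THBS1 and 2 each at PLAUR and F3. The distal H3K27Ac peaks without FAIRE were a peak 35.0 to 36.4 kb downstream of the PLAT start site (score 78.0) and an intronic peak of SERPINE2 (score 74.5), both of low score.

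Heights of the FAIRE peaks differed between the genes. PLAU had a median height of 72.5 over 14 peaks, with 10 at or above the list median. SERPINE2 had a median of 50.6 over 8 peaks, with 3 at or above it, and THBS1 a median of 51.3 over 4. PLAUR had the highest median, 87.0 over 5 peaks. Over all 48 peaks, 28 were at or above the list median and 20 below it.

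An AP-1 match TGANTCA in the central 300 bases was found in 24 of the 48 FAIRE peaks, compared with 39.1% of the 46536 FAIRE peaks on chromosomes 1 to 22 and X, and anywhere in the peak in 34 of 48, compared with 59.2%. Of the 34 distal FAIRE peaks, 19 held one in the central bases, compared with 44.2%. PLAU had the match in 8 of 14 peaks by the central rule and 10 of 14 anywhere, PLAT in 5 and 8 of 13, and SERPINE2 in 3 and 6 of 8. The FAIRE peak at the THBS1 promoter held none. Some matches shown above lay outside the central 300 bases of their peak. They were those 1698 bp before the PLAU start site, 1035 bp after the PLAUR start site and 47452 bp before the SERPINE2 start site. The match is common in the FAIRE list, so its presence near these genes is a description of the sequence only.

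**Figure D4:**
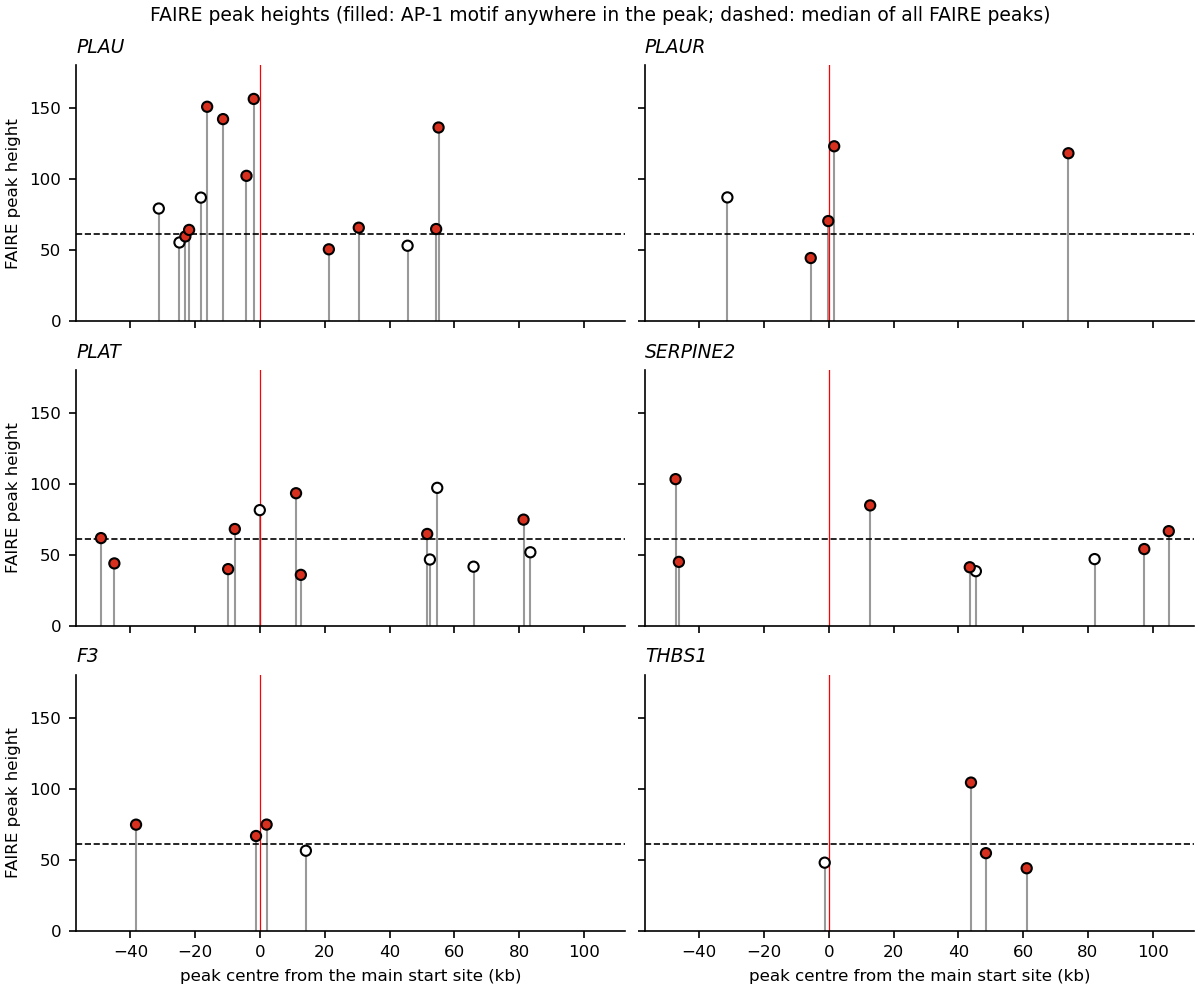
Height of each FAIRE peak against the distance of its centre from the main start site (kb, red line), with filled points for peaks that hold TGANTCA anywhere and a dashed line at the list median of 61.1. The highest points are those of PLAU, up to 156, and F3 stays below 75.

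In the 300 bases before the main start site, TGANTCA was found for PLAUR and F3 (2 of 6 genes, compared with 5.74% of 19819 promoters of the same length). TATAAA was found for PLAT and F3 (2 of 6, compared with 11.0%), and GGGCGG for all but PLAUR (5 of 6, compared with 60.9%), on either strand. CCAAT (37.8% of promoters) and GGAATG (12.2%) were found for THBS1 alone. The GC content of these bases was 80.3% for SERPINE2, 77.0% for F3, 69.3% for THBS1, 67.0% for PLAU, 61.3% for PLAUR and 57.7% for PLAT, against a median of 62.0%. The genes without a FAIRE peak over the main start site, SERPINE2, F3, THBS1 and PLAU, had the highest GC content. Any part of base composition in the FAIRE peaks was not tested.

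The limit of 50 kb was crossed by a peak in each list. The last peaks counted, each of which reached over the limit, were an H3K4me3 peak 47.9 kb (score 3100) and an H3K27Ac peak 48.0 kb (score 2658) from PLAUR, an H3K4me1 peak 47.8 kb from F3 (score 108) and a FAIRE peak 49.9 kb from PLAT (height 51.9). The first peaks wholly outside it were an H3K4me3 peak 62.5 kb (score 3100), an H3K27Ac peak 57.2 kb (score 158) and a FAIRE peak 57.8 kb (height 48.2) from PLAT, and an H3K4me1 peak 56.6 kb from F3. This H3K4me1 peak was 15072 bp wide with a score of 723, stronger than any H3K4me1 peak inside the limit.

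Other genes of plasminogen activation, coagulation at the cell surface and thrombospondin biology were examined by role. Of 38 such genes, 22 had an H3K4me3 peak at the promoter (compared with 67.3% of protein-coding genes), 26 an H3K27Ac peak (63.5%), 11 an H3K4me1 peak (20.0%) and 15 a FAIRE peak (39.3%), and 11 had none (29.3%). These shares over protein-coding genes are also those to set beside each role below. All 4 surface binders of plasminogen had H3K4me3, H3K27Ac and FAIRE peaks, among them ANXA2 (H3K27Ac width 15224 bp), S100A10 (FAIRE height 148) and ENO1 (H3K4me3 width 8065 bp). Of the 10 plasma factors made mainly in the liver, 8 had no promoter peak of any list (compared with 29.3% of protein-coding genes), including plasminogen itself (PLG). The exceptions were F12, with an H3K4me3 score of 3100, and F2, with H3K27Ac (score 440) and no H3K4me3. Thus the surface proteins that gather plasminogen carried promoter marks in these cells, and the gene of the proenzyme did not.

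All 5 regulators of tissue factor, thrombin and protein C at the cell surface had H3K4me3, H3K27Ac and FAIRE peaks at the promoter (67.3%, 63.5% and 39.3% of protein-coding genes). TFPI, the inhibitor of tissue factor, had an H3K27Ac peak of 16853 bp (score 3100), THBD, the thrombomodulin gene, an H3K4me3 peak of 5539 bp, and PROCR, the protein C receptor gene, a FAIRE height of 117. Among the 5 inhibitors and clearance receptors, 3 had H3K4me3 and 4 had H3K27Ac, and SERPINB2, another inhibitor of plasminogen activators, had H3K27Ac alone (score 417). Of the 4 protease-activated receptors, 2 had H3K4me3, including F2RL1 (H3K27Ac width 6913 bp).

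Of the 6 other thrombospondins and thrombospondin receptors, 3 had H3K4me3 at the promoter (compared with 67.3% of protein-coding genes) and 1 had FAIRE (compared with 39.3%), and THBS2, the closest relative of THBS1, had no promoter peak. CD36, a thrombospondin-1 receptor, had H3K27Ac (score 210), H3K4me1 (score 116) and FAIRE (height 39.5) without H3K4me3. All 4 integrin partners of the urokinase receptor had H3K4me3 and H3K27Ac (67.3% and 63.5% of protein-coding genes), with H3K27Ac widths of 26380 bp at ITGA3 and 11268 bp at ITGB1, both of which had peaks of all 4 lists.

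**Figure D5:**
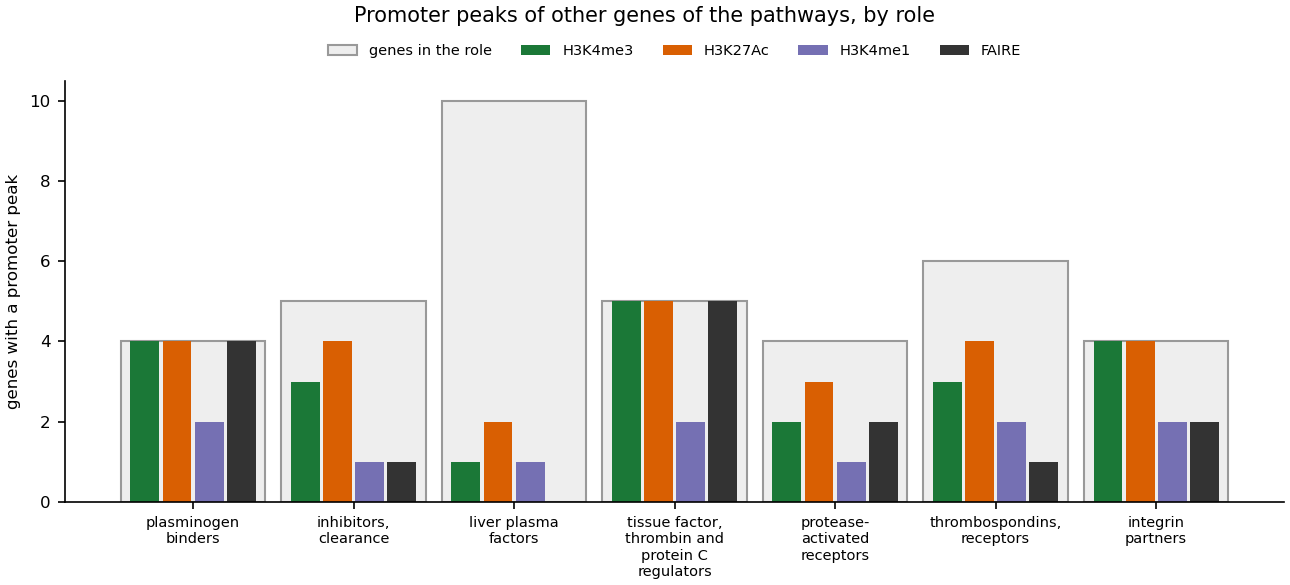
Number of genes in each role (grey) and of those with a promoter peak of each list (coloured bars). All 4 plasminogen binders and all 5 regulators of tissue factor, thrombin and protein C had H3K4me3, H3K27Ac and FAIRE peaks, and liver plasma factors had H3K4me3 in 1 of 10.

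The label of the cells was checked against marker genes of breast cancer lines and of other cell types. All 5 markers of mesenchymal and basal-like lines (VIM, ZEB1, CD44, AXL and CAV1) had promoter peaks of all 4 lists (compared with 13.1% of protein-coding genes). Of the 6 luminal markers, 5 had H3K4me3 (compared with 67.3%), 3 had H3K27Ac (63.5%), FOXA1 and CDH1 (2 of 6) had FAIRE (39.3%) and none had H3K4me1 (20.0%); the ESR1 promoter had H3K4me3 (score 1258) alone. The leukocyte markers PTPRC and CD3E and the endothelial markers CDH5 and TEK had no promoter peak. Peaks over promoters are not levels of expression, and no expression was measured here.

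The genes with the most similar surroundings were found by the Euclidean distance between ranks of covered share in the 4 lists, over all protein-coding genes whose widened bounds did not meet those of the gene. For PLAU these were OSM, the oncostatin M gene, with 43.5% under H3K27Ac and 13.3% under FAIRE, and GPRC5A, with 25.7% and 9.26%, and OSM itself had no promoter peak. For PLAT they were EIF3D (27.1% and 8.43%) and VPS37B (27.1% and 8.45%). For F3 they were SLX9 (20.8% and 3.04%) and TNIP2 (19.5% and 2.99%). For SERPINE2 they were ARID3B and TRABD2A, for PLAUR NUTF2 and DDX55, and for THBS1 WASF2 and TNFRSF10D. The distances in rank ran from 366 for EIF3D to 1138 for TNFRSF10D, on a scale of 20098 places in each list.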

How the data were processed

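Peaks came from MDAMB231 libraries, with 2 samples and 1 input behind each of FAIRE-seq and the ChIP-seq marks. Per the study's methods, the authors mapped reads to GRCh37 (hg19) with BWA, filtered duplicates and poorly mapped reads with Samtools, and found peaks against input with MACS (histone marks) or FindPeaks (FAIRE); each list combines both samples. The score of each histone peak was deposited by the authors and is 10 times the negative log10 of the MACS p-value. The signal value of each FAIRE peak is the height that the authors deposited, and its scaling to depth is not given in the sources used here. Depth per library was not used here.

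Starts of the lists were converted to 1-based positions. Overlaps of 1 base or more with GENCODE version 44 genes placed on GRCh37 were counted with Python 3.11.15, numpy 2.4.6 and pandas 2.3.3, and bases were read with pysam 0.24.0; figures used matplotlib 3.10.9. Counting was tested on simulated data against bedtools 2.31.1, with 0 of 3000 intervals different. Background shares are over protein-coding genes on chromosomes 1 to 22 and X, where 46536 of 46552 FAIRE peaks lie. The annotation lacked 1 marker gene. Named are the 6 genes, their promoter peaks, the 3 strongest other peaks of each list within 50 kb and, chosen after seeing the data, some weaker peaks that met these or lacked a FAIRE peak, at most 15 pathway genes and the 2 most similar genes for each; the start site of the canonical transcript was added after seeing the data. The genes and lists were chosen with earlier results of these data known. With combined samples no test was made.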

Additional observations from a re-analysis of the deposited data

How the results depend on the processing

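Of 56 alternatives to the 12 counts, 43 stayed within 1.5 times of the reported count. With bounds widened by 25 kb, the regions held 9 H3K4me3, 20 H3K27Ac, 12 H3K4me1 and 29 FAIRE peaks, 9 distal H3K27Ac peaks that met FAIRE and 6 distal H3K4me1 peaks that met H3K27Ac. With 100 kb there were 52 H3K27Ac and 37 H3K4me1 peaks. Of the FAIRE peaks, 28 reached the list median in height, and 15 of these held an AP-1 motif. A FAIRE peak was at the promoter of 3 genes with the narrower flank around start sites, and of 3 with the centre of the peak inside the promoter. With the main start site only, an alternative chosen after seeing the data, 2 genes had H3K4me1 at the promoter. No paired analysis was possible because the authors combined the samples of every assay into 1 list. Counts near a limit of distance or height may depend on depth, which was not tested because the lists do not give it.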
